A study of Homo sapiens with 13 samples.

Results

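Sites of N6-methyladenosine (m6A) on messenger RNA were mapped by MeRIP-seq in MDA-MB-231 cells depleted of VIRMA (KD) and in non-targeting control cells (NTC). The members described here are all 5923 summits of the KD list and all 8377 summits of the NTC list, counted gene by gene. A summit is the single base at which the enrichment of m6A-antibody pull-down over its surroundings was highest within a called peak, and each carries a score on a -log10 scale. Of these summits, 5098 KD and 7107 NTC summits lay within the span of a single protein-coding gene, and they fell in 4955 genes.

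MDA-MB-231 is a human cell line grown from a breast cancer of the triple-negative kind. The cells were infected with lentivirus and selected as stable lines, either NTC or depleted of VIRMA, which the labels call KIAA1429, and all were at passage P2. The labels call the MeRIP-seq line a knockdown and do not state its construct, and each condition has 1 pull-down and 1 input library. Separate RNA-seq libraries, 3 for each of 2 VIRMA knockout lines (sg1 and sg2) and 3 for NTC, were used as a second readout, and the labels do not say whether those 3 came from separate cultures. The 1 summit list per condition has no replicate error, so no test was made between the lists, and the MeRIP-seq files give no read depth. Exact binomial intervals at 95% are given for shares of genes and cover counting error only.

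The m6A mark is placed in the nucleus by a complex in which METTL3 is the catalytic subunit, METTL14 holds the RNA, and WTAP, VIRMA, ZC3H13, RBM15, RBM15B and CBLL1 act as adaptors. VIRMA is the large scaffold of the adaptor part and is known for directing methylation toward the stop codon and the 3′ end of transcripts. Reader proteins of the YTH and IGF2BP families bind the mark and change the decay, translation or splicing of the transcript, and long exons and the region near the stop codon are the places where m6A is usually found.

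The m6A writer prefers short motifs that often contain GGAC. To show what lies under a summit, 30 bases around the NTC summit are printed for the 6 genes with the highest-scoring NTC summit inside a RefSeq gene-start window (250 bases before to 50 after an annotated start, GRCh38.p14). Letters are in the direction of transcription, and capitals mark GGAC, which was searched on that strand only.
G6PC3: ctGGACtctggtttccgccctggagcaagc
SNX33: cctgatagggcagtttctgggccatGGACa
FBXL14: cccaagtggccgcGGACggcgggggagaag
CDK13: cttggaGGACtcgGGACtcccccgcaggtc
CUL1: caggGGACtgGGACcccctcttcttcgggg
SAC3D1: cgcagtgcatctcgggaggccaactcgact
The G6PC3 stretch is chr17:44070909-44070938 on the plus strand, the SNX33 stretch chr15:75648891-75648920 on the plus strand, and the FBXL14 stretch chr12:1594665-1594694 on the minus strand. CDK13 (chr7:39950320-39950349), CUL1 (chr7:148698314-148698343) and SAC3D1 (chr11:65041070-65041099) are on the plus strand. The letters GGAC occurred in 5 of these 6 stretches and in 7 of the 22 NTC summits that had 30 bases inside such a window. The 6 were picked by score from those 22. Over all 22198 coding gene-start windows, 9.97% held GGAC in the 30 bases around the start. That share is for stretches centred on the start, not on a summit, so the positions differ. Relative to the start of its window (negative is before it), the summit lay at 12 in G6PC3, -102 in SNX33 and -98 in FBXL14. It lay at -26 in CDK13, -35 in CUL1 and -126 in SAC3D1. Bases before a start lie outside a transcript that begins there. A KD summit within 100 nt was present for the SNX33, CDK13 and SAC3D1 sites and absent for the G6PC3, FBXL14 and CUL1 sites. G6PC3, a glucose-6-phosphatase subunit, had 0 summits in KD and 1 in NTC (score 18.3), whereas CDK13, a kinase of RNA polymerase II, had 5 in KD and 6 in NTC.

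The KD list was shorter than the NTC list, and the shortfall was spread over the genome. The KD list held 70.7% as many summits as the NTC list, and over the autosomes and X this share lay between 62.8% (chromosome X) and 80.5% (chromosome 11). Scores had a median of 6.79 in KD, with quartiles of 4.38 and 9.94, and of 7.71 in NTC, with quartiles of 4.93 and 11.5. Both lists begin just above the -log10 of 0.05. A further 178 KD and 299 NTC summits lay on contigs outside the main chromosomes, 297 and 517 in no protein-coding gene, and 350 and 454 in the spans of several, and none of these was counted for a gene.

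Fewer genes carried a summit in KD cells. Of 20052 protein-coding genes, 3490 had at least 1 KD summit (17.4%) and 4581 had at least 1 NTC summit (22.8%), and 3116 had a summit in both. Among the 4581 genes with an NTC summit, 1465 had none in KD, 32% (95% interval 30.6 to 33.4%). Among the 3490 genes with a KD summit, 374 had none in NTC, 10.7% (9.71 to 11.8%). Most genes had a single summit in either condition, 2424 of 3490 in KD and 2989 of 4581 in NTC, and the mean per gene with a summit was 1.46 in KD and 1.55 in NTC. Genes with 5 or more summits numbered 43 in KD and 98 in NTC.

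Within the 3116 genes that kept at least 1 summit, the number was most often the same. It was equal in 2034 genes (65.3%), lower in KD in 798 (25.6%, interval 24.1 to 27.2%) and higher in KD in 284 (9.11%, interval 8.13 to 10.2%). A difference of at least 2 summits was seen in 366 genes with fewer and 53 with more in KD, out of the 4955. In genes with equal numbers, 78.7% of the 2745 KD summits lay within 100 nt of an NTC summit.

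**Figure D1:**
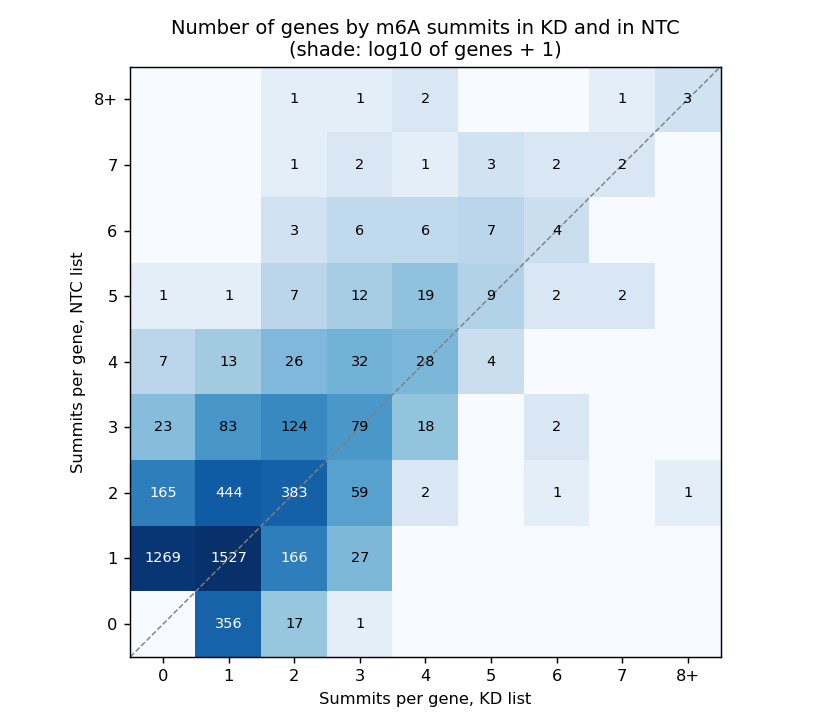
Number of genes for each combination of summits in the KD list (horizontal) and in the NTC list (vertical), with 8 or more joined; each cell prints its gene count and the dashed line marks equal numbers. More genes lie above the line (fewer in KD) than below it: 1269 genes had 0 KD and 1 NTC summit, and 356 had 1 KD and 0 NTC summits.

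The lists were also compared at equal length. The lowest NTC score kept was 5.42, with tied summits left in or out by their order, while the uncut KD list reached down to 1.30. When the NTC list was limited to its highest scores so that both lists held 5923 summits, 1294 genes had fewer or no summits in KD and 1254 had more or new ones. Equal totals bring falls and rises close to each other by construction, so these counts do not show where the excess in the full lists came from. In that setting 24.6% of NTC genes had no KD summit and 22.7% of KD genes had no NTC summit, and among genes in both, 15.4% had fewer and 17.1% had more summits in KD. The part that sequencing depth or antibody background had in the lengths of the lists was not tested, and with 1 library pair per condition a difference between libraries and a difference between conditions cannot be told apart.

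The highest score of a gene was also lower in KD for most genes that had summits in both lists. The median of the highest score over these 3116 genes was 8.20 in KD and 10.7 in NTC, and 2233 of them (71.7%, interval 70.0 to 73.2%) had the lower value in KD. In the 2034 genes with equal numbers of summits, 69.8% were lower in KD (medians 7.89 in KD and 10.1 in NTC). A score depends on the reads of its own pull-down and input, so these values describe each list and do not measure the methylated share of a transcript. The order of genes was partly shared: across the 3116 genes the highest scores had a Spearman correlation of 0.53 and the numbers of summits one of 0.60, as a description of genes that share the same 4 libraries. Of the 100 genes with the highest scores in each list 27 were shared, and of the 500 highest 212 were shared.

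Genes with few or weak NTC summits were those most often without a KD summit. Of 2989 genes with 1 NTC summit 42.5% had none in KD (interval 40.7 to 44.3%). The share was 15.6% of 1055 genes with 2 summits, 6.99% of 329 with 3, 6.36% of 110 with 4, and 1.02% (1 gene, SPATA13) of 98 with 5 or more. By highest NTC score, 59.3% of 874 genes below 5 had no KD summit, 39.3% of 1718 from 5 to 10, 17.2% of 1140 from 10 to 15, 10.7% of 578 from 15 to 20 and 4.80% of 271 at 20 or above. The reverse view had the same form at lower shares. Of 865 genes with a highest KD score below 5, 18.6% had no NTC summit, against 1.09% of 92 genes at 20 or above. In summed summits, KD held 64.9% of the NTC number in genes with 1 NTC summit and 70.4% in genes with 5 or more. By highest NTC score the same ratio ran more widely, with 41.8% below 5, 57.5% from 5 to 10, 73.4% from 10 to 15, 80.1% from 15 to 20 and 88.7% at 20 or above.

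The share also followed the RNA-seq read count of the gene in part. Read counts here are normalized counts per gene, not divided by transcript length. With the genes in 4 groups of about equal size by NTC read count, 40.0% of the 1118 genes in the lowest group (up to 230 normalized counts) had no KD summit, and in the other groups the share was 29.2%, 29.5% and 28.2%. In 4 such groups by length of the gene span it was 31.2%, 33.4%, 32.1% and 31.4% from the shortest to the longest, with intervals that overlapped.

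**Figure D2:**
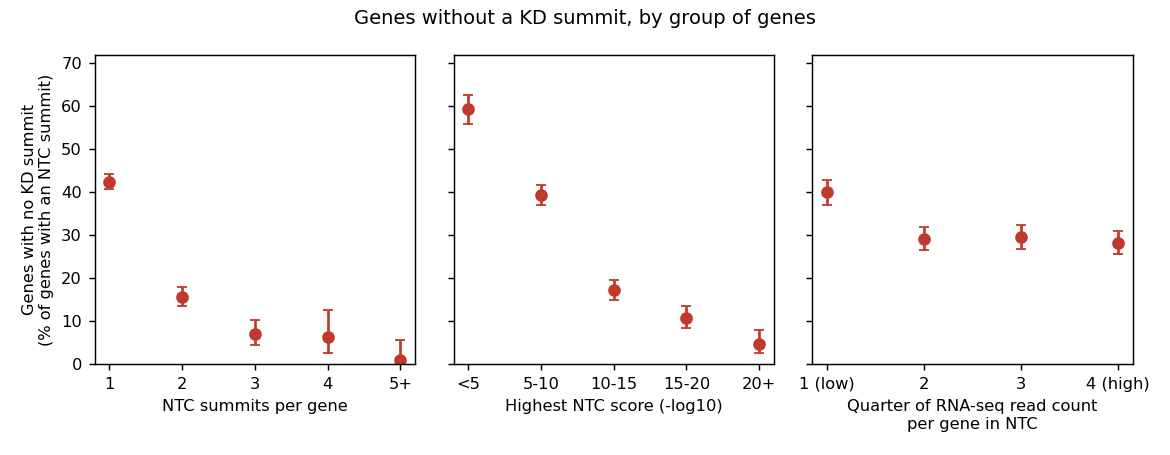
Percent of genes with an NTC summit that had no KD summit, by the number of NTC summits, by the highest NTC score (-log10) and by 4 groups of the normalized RNA-seq read count in NTC, lowest first; points are shares and bars exact 95% binomial intervals. The share was 42.5% with 1 NTC summit and 1.02% with 5 or more, and 59.3% below a score of 5 and 4.80% at 20 or above.

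Several of the genes with the most NTC summits had similar numbers in KD. AHNAK2, a very large scaffold protein, had 11 summits in KD and 15 in NTC, 10 of them within 100 nt of each other between the lists. FAT4, a giant cadherin, had 10 in KD and 10 in NTC, and KMT2D, a histone H3K4 methyltransferase, also had 10 in each, 8 of them in the same places. ZFHX3, a homeobox transcription factor, had 7 in KD and 9 in NTC, and MACF1, a linker of actin and microtubules, 6 in KD and 7 in NTC. Of the NTC summits, 7 of 10 in FAT4, 5 of 7 in MACF1 and 4 of 9 in ZFHX3 had a KD summit within 100 nt.

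Others with many NTC summits kept few. MKI67, which encodes the proliferation marker Ki-67, had 2 summits in KD (scores 8.16 and 14.4) and 13 in NTC (scores 2.62 to 13.8). Both KD summits lay within 100 nt of NTC summits near one end of the gene, at chr10:128098355 and chr10:128098920 (hg38). The other 11 NTC summits spread over the rest of a 17.6 kb stretch that ended at position 128115906, and no KD summit was listed there. Among the 11 were summits with scores of 11.2, 9.10, 8.97, 8.90 and 8.76, above the weaker of the KD summits. With the lists at equal length MKI67 had 2 in KD and 8 in NTC. The 8 include the summit at chr10:128109236, which was tied at the lowest score kept (5.42) and stayed in by the order of ties.

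FAT1, a giant cadherin, had 4 summits in KD and 10 in NTC, and all 4 lay within 100 nt of an NTC summit. Its highest score was 9.33 in KD and 21.1 in NTC. At equal list length it had 4 in KD and 4 in NTC, with 1 further NTC summit tied at the lowest score kept and left out by the order of ties. DST, the cytolinker dystonin, had 2 in KD and 7 in NTC, and its strongest NTC summit (23.5) had no KD summit beside it, the highest KD score being 6.36. NAV1, a microtubule-binding protein, had 3 in KD and 8 in NTC, HIVEP3, a zinc finger factor, 4 and 8, and KMT2C, a relative of KMT2D, 3 and 7. ZKSCAN1 and ZSCAN20, zinc finger genes, each had 2 in KD and 6 in NTC, as did TSC22D1, a transcriptional regulator. SPATA13, a guanine nucleotide exchange factor, had 0 in KD and 5 in NTC (scores 2.43 to 8.94).

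Rises in number were smaller, with 1 exception. MUC5B, a gel-forming mucin, had 10 summits in KD (scores 3.89 to 7.87) and 2 in NTC (5.21 and 5.31). The 10 KD summits covered 7.77 kb, from chr11:1241447 to 1249220, and the NTC summits at 1242167 and 1249321 lay just over 100 nt from the KD summits at 1242276 and 1249220. At equal list length MUC5B had 10 in KD and 0 in NTC. Only the NTC list was cut there, at a score of 5.42, just above the 2 NTC summits, while KD summits down to 3.89 were kept. With scores of at least 5 in either list MUC5B had 5 in KD and 2 in NTC. SMCR8, a partner of C9orf72 in autophagy, had 6 in KD and 2 in NTC, and CUX1, a homeobox factor, 6 in KD and 3 in NTC. C15orf39 had 6 in KD and 3 in NTC, and its highest score was 20.5 in KD and 9.60 in NTC. SPEN, a transcriptional repressor, had 7 in KD and 5 in NTC, and BRWD1, a bromodomain protein, 3 in KD and 0 in NTC. IVD, an enzyme of leucine breakdown, and MED26, a Mediator subunit, each had 3 in KD and 1 in NTC, while ST3GAL2, a sialyltransferase, and SSH2, a cofilin phosphatase, each had 4 in KD and 2 in NTC.

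**Figure D3:**
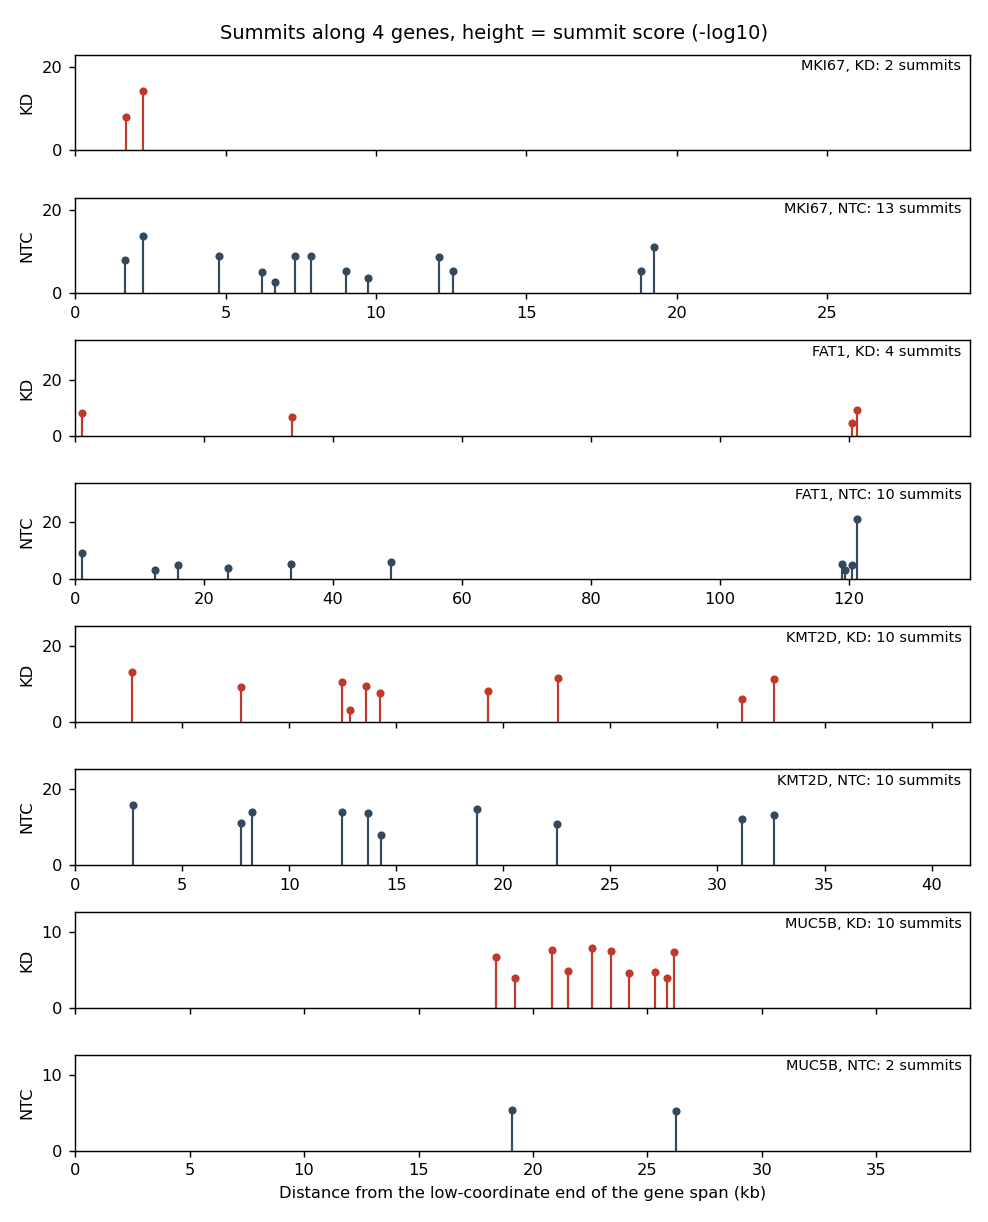
Summits along MKI67, FAT1, KMT2D and MUC5B, as distance from the low-coordinate end of the gene span (kb, horizontal) against summit score (-log10, vertical), with the KD list above the NTC list for each gene. MKI67 had 2 KD and 13 NTC summits, FAT1 4 and 10, KMT2D 10 and 10, and MUC5B 10 and 2.

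Among the genes with the highest scores, the strongest KD and NTC summits of SPSB1, PLEKHF1, MMP17, ATXN1, CELSR1, WNT5B and CGRRF1 lay within 100 nt of each other. SPSB1, an adaptor of a ubiquitin ligase, had the highest score of the NTC list, with a highest score of 30.3 in KD and 40.0 in NTC, 2 summits in each. PLEKHF1, an endosomal protein, had the highest score of the KD list, 36.8 in KD and 31.6 in NTC. MMP17, a membrane-bound matrix metalloprotease, had 32.0 in KD and 35.6 in NTC, and ATXN1, ataxin-1, 32.3 and 33.2. CELSR1, a cadherin of planar polarity, had 5 summits with a highest score of 23.2 in KD and 4 with a highest score of 36.2 in NTC. WNT5B, a Wnt ligand, had 1 summit in KD with a score of 31.6, and 4 in NTC with a highest score of 20.5; the KD summit (chr12:1647013) and the strongest NTC summit (chr12:1647018) lay within 100 nt of each other. CGRRF1, a RING finger protein, had 19.1 in KD and 36.3 in NTC, and B4GALNT4, a glycosyltransferase, 22.9 and 36.3. The B4GALNT4 summits, at chr11:376945 in KD and chr11:377098 in NTC, were over 100 nt apart. In RAB40C and USP32 the strongest summits also lay at different places. RAB40C had 22.9 at chr16:627687 in KD and 34.0 at chr16:628943 in NTC. USP32 had 29.0 at chr17:60181708 in KD and 20.1 at chr17:60179369 in NTC.

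Some genes with a strong NTC site had no KD summit at all. NIF3L1 had the highest NTC score among them, 27.6, followed by CNOT2, a subunit of the CCR4-NOT deadenylase (24.3), POP4, a subunit of RNase P (23.0), and DPAGT1, the enzyme that starts N-glycan assembly (22.3). UBALD2 (22.1), EEF2K, the kinase of elongation factor 2 (21.3), PML, the organizer of PML nuclear bodies (20.8, 2 NTC summits), and NR2F6, an orphan nuclear receptor (20.7), came next. Genes with a KD summit and none in NTC reached lower scores. SNX18, a sorting nexin, had 21.9, PKP3, a desmosomal plakophilin, 18.8, SNN 17.0 and MAP2K7, a kinase of the JNK pathway, 15.1. CAVIN3, a coat protein of caveolae, had 13.8, MMP15, a membrane-bound metalloprotease, 13.7, ZNF205 13.7 and USP53 12.8.

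HAS2, which encodes hyaluronan synthase 2 and is named in the study's title, had no KD summit and 1 NTC summit at chr8:121628932 (hg38), with a score of 8.94. That score lies in a range where the absence of a KD summit was common: of 1222 genes with 1 NTC summit scoring from 5 to 10, 46.4% had none in KD (interval 43.6 to 49.2%). Of 20 genes of hyaluronan synthesis, turnover and binding, 2 had a summit in KD (10%) and 5 in NTC (25%). Over all coding genes these shares were 17.4% and 22.8%. Of the 5 genes 3 had none in KD, beside 32% over all coding genes, and so few genes show no loss particular to this list. HAS3, another hyaluronan synthase, had 0 in KD and 1 in NTC (11.3), and HYAL3, a hyaluronidase, 0 and 1. HYAL2, a hyaluronidase of the cell surface, had 1 in each (scores 8.97 in KD and 10.7 in NTC), and CEMIP2, a surface protein linked to hyaluronan breakdown, 1 in KD and 2 in NTC. CD44, the main hyaluronan receptor, had no summit in either list.

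The genes of the m6A machinery carried summits in both conditions. Of the 8 writer subunits 5 had a summit in KD and the same 5 in NTC, and the list held 9 summits in KD and 12 in NTC. RBM15, an RNA-binding adaptor, had 3 in each, RBM15B, its paralog, 2 in KD and 3 in NTC, ZC3H13, a nuclear anchor of the complex, 1 in KD and 3 in NTC, and CBLL1, a RING-type subunit, 2 in each. VIRMA itself had 1 summit in KD (5.86) and 1 in NTC (6.11), which were not within 100 nt of each other. METTL3, METTL14 and WTAP had none in either list. Of 14 readers and erasers 5 had a summit in KD and 6 in NTC. YTHDF1 had 1 in KD and 2 in NTC, YTHDF2 2 in each, YTHDF3 2 in KD and 1 in NTC, and IGF2BP3 1 in KD and 2 in NTC, while YTHDC1, the nuclear reader, had 0 in KD and 1 in NTC. FTO, a demethylase, had 1 in each. FTO and YTHDF3, and HYAL3 above, complete lists of at most 6 genes and were named after their values were seen.

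Over all coding genes 17.4% had a summit in KD and 22.8% in NTC, and KD held 71.7% as many summits as NTC. The other gene lists are read beside these values and beside the 32% of genes with an NTC summit that had none in KD. That share was 42.5% for genes with 1 NTC summit, 15.6% with 2 and 6.99% with 3. The lists were not matched for the number of summits per gene, so a list with many per gene lies below 32% on that ground. Large chromatin regulators carried the most: 34 of 41 had a summit in KD and 36 of 41 in NTC, with 100 summits in KD and 116 in NTC, and 2 of 36 had none in KD. KMT2A, a histone methyltransferase, had 3 in KD and 7 in NTC, and TET3, a DNA demethylase, 5 and 6. Giant cadherins held 28 summits in KD and 35 in NTC, and 20 in NTC at equal list length. Of 27 transcripts known for m6A, 12 had a summit in KD and 14 in NTC. MYC had 2 in KD and 3 in NTC, SON, a splicing scaffold, 2 and 5, HIVEP1 2 and 5, and the RNA of TUG1 3 and 4. BCL2, the apoptosis inhibitor, named after its values were seen, had 2 in KD and 0 in NTC.

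Genes of the cell cycle differed between the lists mainly through genes with 1 NTC summit and through MKI67. Of 34 G1/S and replication genes 9 had a summit in KD and 16 in NTC, and 9 of the 16 had none in KD. The 16 held 17 NTC summits, and over all genes with 1 NTC summit 42.5% had none in KD. ORC1, an origin recognition subunit, had 0 in KD and 2 in NTC, while MCM2, a subunit of the replicative helicase, had 1 in each and the transcription factor E2F3 1 in each. Of 30 genes of G2/M and mitosis 3 had a summit in KD and 7 in NTC. These 3, MKI67, CENPF and INCENP, all had fewer in KD, CENPF, a kinetochore protein, 3 in KD and 4 in NTC, and INCENP, a subunit of the Aurora B complex, 1 and 3. The list held 6 summits in KD and 24 in NTC, and 13 in NTC at equal list length, most of the gap being MKI67. At equal length 4 of 10 G1/S genes and 1 of 4 G2/M genes with an NTC summit had none in KD, beside 878 of 3576 (24.6%) over all coding genes in that setting.

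Signalling lists varied on both sides of the 71.7% of NTC summits that KD held over all coding genes. The share was 61.9% for TGF beta and BMP genes, 73.1% for the immediate early list and 80.5% for Notch and Wnt genes. It was 100% for the EGFR family list, 94.7% for Hippo pathway genes and 44.4% for integrins and laminins. These lists hold few summits, and a difference from 71.7% was not tested. The EGFR family list held 8 summits in KD and 8 in NTC. EGFR had 3 in KD and 2 in NTC, and MET and ERBB2 1 in each. Hippo pathway genes held 18 in KD and 19 in NTC, with 6 in each for the kinase LATS2 and 3 in KD against 2 in NTC for AMOTL2, a YAP-binding protein. TGF beta and BMP genes held 13 in KD and 21 in NTC; SMAD3 and SMAD6 each had 2 in KD and 3 in NTC, and the repressor SKI 1 in KD and 3 in NTC. Notch and Wnt genes held 33 in KD and 41 in NTC, with 4 in each for the receptor FZD7. Of the immediate early list 15 of 27 had a summit in KD and 19 in NTC. KLF4 had 3 in KD and 2 in NTC, FOSB 0 and 2, and the AP-1 subunits FOS and JUN, also named after their values were seen, 1 in each. Integrins and laminins held 4 in KD and 9 in NTC; ITGB5 had 0 in KD and 2 in NTC, both weak, and ITGA5 1 in each.

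Ribosomal protein and oxidative phosphorylation lists were nearly empty in both conditions, beside 17.4% of all coding genes with a summit in KD and 22.8% in NTC. Of 75 cytosolic ribosomal protein genes 0 had a summit in KD and 2 in NTC (RPS24 and RPS29), and of 44 nuclear genes of oxidative phosphorylation 0 had a summit in either list. Of 34 proteasome genes 1 had a summit in KD and 3 in NTC, and PSMB7, a catalytic subunit, had 1 in KD and 5 in NTC. Of 28 genes of cholesterol synthesis and uptake 2 had a summit in KD (7.14%) and 4 in NTC (14.3%), below the shares over all coding genes but in few genes. Zinc finger genes of the ZNF family were at the other end: 179 of 509 had a summit in KD (35.2%) and 248 in NTC (48.7%), with 274 summits in KD and 398 in NTC. Of the 248, 87 had none in KD (35.1%), close to the 32% over all coding genes with an NTC summit. ZNF608 had 5 in KD and 6 in NTC, ZNF584 5 in each, and ZNF324B 2 in KD and 5 in NTC.

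**Figure D4:**
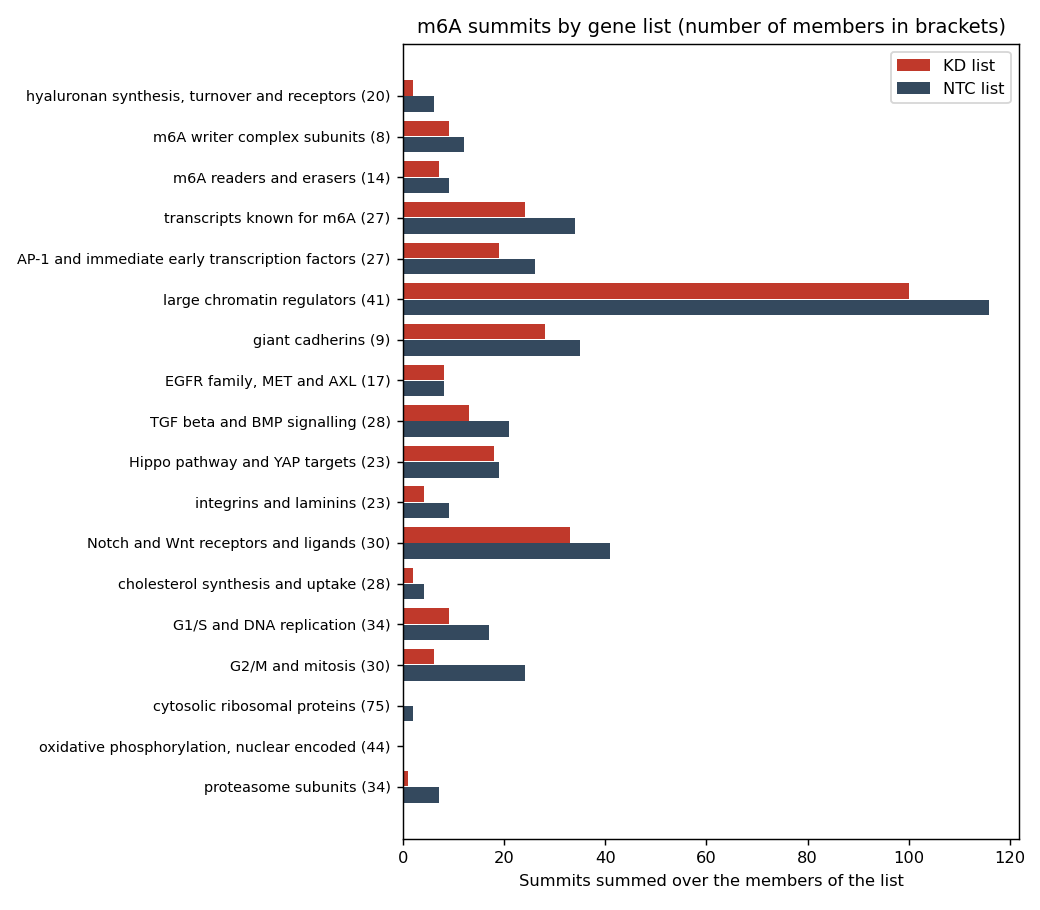
Summits summed over the members of 18 gene lists, with the KD list above the NTC list; the number of members stands in brackets and the ZNF family is left out for scale. Large chromatin regulators held 100 KD and 116 NTC summits, G2/M genes 6 and 24, and ribosomal protein genes 0 and 2.

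Summits of both lists lay at similar distances along their genes. The direction of transcription was known for 82.9% of KD and 83.3% of NTC summits in a single gene. Of these, 26.6% in KD and 27.2% in NTC lay in the last 2 kb of the gene span, 52.3% and 51.3% in the last 5 kb, and 8.03% and 7.37% in the first 1 kb. In genes without a KD summit 31.8% of NTC summits lay in the last 2 kb, against 25.8% of NTC summits in genes with a summit in both lists. In genes with a summit in KD alone, 12.9% of 317 KD summits lay in the first 1 kb, against 7.63% of KD summits in genes with summits in both. Exons were not used, so these are distances along the span and not places in the coding region or an untranslated region.

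The knockout RNA-seq libraries served as an independent readout, from lines other than the knockdown. Among genes listed as low or absent in MDA-MB-231, ESR1, PGR and CDH1 were at most 7.07, 6.50 and 19.7 normalized counts. ERBB2, KRT8 and EPCAM, on the same list, reached 1820, 11438 and 316. VIM, listed as present, was at least 18031, and the endothelial marker PECAM1 reached 869. Triple-negative status was not tested with these RNA levels. Among markers of other cells CD3E and CDH5 stayed at or below 3.11, while the fibroblast marker COL1A2 ranged from 3.16 to 591, and the part of such cells in the RNA values was not tested. In bulk RNA, fewer cells and less RNA per cell cannot be told apart. VIRMA RNA averaged 1536 ± 90.0 with sg1 and 1908 ± 310 with sg2, against 2336 ± 308 in NTC (SD, n = 3 each), with overlap between sg2 and NTC. The level of VIRMA in the KD cells was not analysed here.

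RNA of the genes without a KD summit was close to its NTC level in the knockout lines. For the 1376 such genes with a mean of at least 10 normalized counts, the median log2 difference from the NTC mean lay between -0.07 and 0.005 over the 6 knockout libraries, with a mean of -0.04 ± 0.03 (SD over libraries). Over all 12746 coding genes at that level it lay between -0.10 and 0.08. Genes with fewer KD summits had medians of 0.06 to 0.11 in the sg1 libraries and 0.06, -0.15 and -0.20 in sg2-1, sg2-2 and sg2-3. Genes with more KD summits had medians of 0.05 to 0.08 with sg1 and 0.03, -0.14 and -0.19 in the sg2 libraries, so the medians of these groups lay on the same side of 0 in each library. The 7999 genes with no summit in either list showed the opposite order, -0.19 to -0.11 with sg1 and -0.12, 0.15 and 0.19 in the sg2 libraries. The library sg2-1 stood nearer to sg1 than to the other sg2 libraries in each of these groups. No p is given, because these are medians over genes that share libraries.

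**Figure D5:**
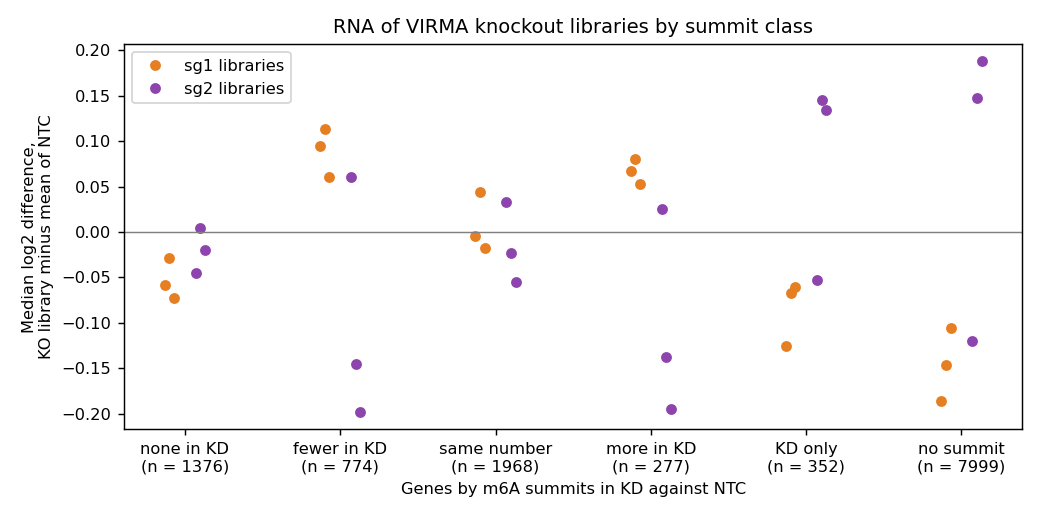
Median log2 difference of RNA between each knockout library and the mean of the NTC libraries (vertical, pseudocount 1), for genes grouped by their summits in KD against NTC; each point is 1 library, sg1 left of sg2. Genes with none in KD lie between -0.07 and 0.005, and genes with no summit in either list between -0.19 and 0.19.

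RNA values of HAS2 and of some genes with large summit differences are given here. Among the genes with the largest falls in number, mean log2 RNA differences ran from -0.85 in TSC22D1 to 0.20 in HIVEP3, and SPATA13 had no RNA value. Among the largest rises they ran from -0.48 in CUX1 to 0.40 in SPEN, and SMCR8 had no RNA value. These means join the sg1 and sg2 libraries. Over all 12746 coding genes with a level, the median difference averaged -0.03 over the knockout libraries. A link between summit number and RNA was not tested. HAS2 had 784, 683 and 532 normalized counts with sg1 and 365, 788 and 816 with sg2, against 2436, 1633 and 2389 in NTC. All 6 knockout libraries were below all 3 NTC libraries (log2 difference -1.73, 3.32-fold lower on the log2(value + 1) scale). An exact two-sided permutation test gave p = 0.0238, the smallest value that 6 against 3 libraries allow. The test took each library as independent, although the 6 came from 2 knockout lines. Its p covers the spread between libraries and not between lines. HAS2 was tested because the title of the study that made these libraries names it, so the p is not that of a gene chosen independently of them. MKI67 had 4502, 4135 and 3028 with sg1 and 4845, 5739 and 5456 with sg2, against 3939, 3696 and 8691 in NTC, where NTC-3 alone was high and the groups overlapped. MUC5B had 376, 253 and 211 with sg1 and 143, 21.1 and 7.84 with sg2, against 98.0, 30.3 and 136 in NTC. Its sg1 values lay above NTC, and the sg2 values spanned the NTC range. FAT1 had 20211, 18148 and 17637 with sg1 and 15638, 14116 and 13486 with sg2, against 18864, 16941 and 25343 in NTC, with overlap for sg1. TSC22D1 had 6104 to 8753 over the knockout libraries, against 14131 to 14664 in NTC, with no overlap.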

How the data were processed

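MeRIP-seq summits came from 2 lists deposited by the authors, 1 for KD and 1 for NTC, each made from 1 pull-down and 1 input library; the submitters' processing notes name MACS2, STAR, cutadapt, HTSeq, DESeq2, FastQC 0.11.8 and hg38, without roles or settings. The deposited score of a summit is on a -log10 scale and is the authors' own value. The authors' RNA-seq table holds a normalized signal per gene (normalized counts in the text), and no source used here gives the scaling. Fragmented mRNA was pulled down with a polyclonal anti-m6A antibody, per the labels' protocols.

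A summit was counted for a gene when exactly 1 protein-coding RefSeq span on GRCh38.p14 held it. RNA symbols came from the name table, with 28338 of 38616 rows joined to RefSeq. The direction of transcription and the printed sequences came from the RefSeq gene-start table. Lists of genes and the rule for named genes (most summits, largest differences, highest scores, strongest in 1 list alone, up to 4 members per list, gene-start sequences) were chosen with earlier results of these data known. No model was fitted across genes, since the lists have no replicates. HAS2 RNA was tested with an exact permutation test on log2(value + 1). Counting was tested on simulated summits. Python 3.11.15, pandas 2.3.3 and scipy 1.17.1 were used. Alternatives were stricter scores, joined summits, equal list length, all gene types, another pseudocount or filter, and leaving out each RNA-seq library.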

Additional observations from a re-analysis of the deposited data

How the results depend on the processing

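Stricter scores raised the shares of unmatched genes. With scores of at least 5, 39.7% of NTC genes had no KD summit, 14.8% of KD genes had no NTC summit and 7.69% of shared genes had more in KD. With scores of at least 10 the lists held 1475 KD and 2769 NTC summits, in 1147 KD and 1989 NTC genes (875 in both); 56.0% of NTC genes had no KD summit, 23.7% of KD genes no NTC summit, and of shared genes 20.2% had fewer and 5.26% more in KD. HAS2 and VIRMA had no summit in either list at that score. With the NTC list at the length of the KD list the shares were 24.6%, 22.7%, 15.4% and 17.1%. Rises then outnumbered falls among shared genes, while over all genes 1294 had fewer or none and 1254 more or new summits in KD. In that setting 77.5% of shared genes had the lower highest score in KD. Only the NTC list was cut, so genes with a low highest NTC score left this share by construction. It cannot be set against the share in the full lists. Joining summits within 100 nt left the lists at 5923 and 8377 summits, so none were joined and this setting could change nothing. Counting genes of any type moved no count by over 1.5 times and no share outside its interval. Counting genes above 0 in any RNA-seq library put the median NTC read count at 495 (no KD summit), 497 (KD alone) and 49.8 (no summit), by construction of the weaker filter. Leaving out single RNA-seq libraries gave 516 to 523 for genes without a KD summit and 425 to 492 for genes with no summit. For HAS2 it gave log2 differences from -1.92 to -1.57 with exact permutation p from 0.0357 to 0.0714; without NTC-1, NTC-2 or NTC-3 the p was 0.0714, the smallest that 6 against 2 libraries allow. With the replicate number as a block the HAS2 difference was -1.73 and the permutation p 0.0741, the smallest that block allows. Same-numbered knockout and NTC libraries had correlations of deviations from -0.204 to 0.0890, so the numbers were not taken as pairs. No read depth is given for the MeRIP-seq libraries, which limits every comparison of the lists.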
